A study of Mus musculus with 1307 samples.

Results

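A set of 10 genes by which stromal and vessel cells can signal to leukocytes was followed through single cells of the mouse heart: the chemokines Ccl2, Ccl11, Ccl19, Cxcl12 and Cxcl14, the cytokines Il6 and Il33, and the adhesion receptors Icam1, Vcam1 and Sele. They were taken by gene symbol from the deposited read counts, 10 of 46517 genes, and all 10 had counts. Read counts had been obtained for 1307 cells, each a library of its own, from hearts that were dissociated with enzymes and sorted into multiwell plates. The libraries were made by Smart-Seq2, which reads whole transcripts and does not tag single molecules. The sort gate is not given in the labels. The double reporter mice carried the alleles ACTA2GFP and CSPG4dsRED, which mark Acta2-expressing (smooth muscle) and Cspg4-expressing (mural) cells, and gave 368, 245 and 336 cells for mice 1, 2 and 3. C57BL/6 mouse 1, without a reporter, gave 347 cells, and 2 further C57BL/6 mice, 1 CSPG4dsRED mouse and 1 ACTA2GFP mouse gave 11 cells together. The mice were adults of 8 to 30 weeks, and double reporter mouse 3 is labelled female while the series' design text names male mice. The other mice with many cells are labelled male, and of the cells of the ACTA2GFP mouse 1 is labelled female and 2 male. For the 4 mice with many cells, 1 plate was used per mouse, and effects of mouse, of plate and of labelled sex cannot be told apart.

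Chemokines are small secreted proteins that attract leukocytes along a gradient, and Cxcl12 also retains blood progenitors through its receptor Cxcr4. Endothelial cells that are activated display Sele (E-selectin), which lets leukocytes roll, and Icam1 and Vcam1, which bind leukocyte integrins and stop them. Il6 is an inflammatory cytokine, Il33 is a nuclear alarmin released from damaged cells, and several of these genes are known targets of the transcription factor NF-kB.

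Promoter windows of 3 members are shown. They are Sele and Icam1, the 2 members that were higher in pericyte-like than in smooth muscle-like cells, and Il6. Among members with a window, Il6 was the only 1 with a match to the NF-kB consensus (capitals). Each window runs from 250 bases before to 50 bases after the start given by RefSeq on GRCm38.p6, 5′ to 3′ on the gene's strand.
Sele, chr1:164047984-164048283, plus strand: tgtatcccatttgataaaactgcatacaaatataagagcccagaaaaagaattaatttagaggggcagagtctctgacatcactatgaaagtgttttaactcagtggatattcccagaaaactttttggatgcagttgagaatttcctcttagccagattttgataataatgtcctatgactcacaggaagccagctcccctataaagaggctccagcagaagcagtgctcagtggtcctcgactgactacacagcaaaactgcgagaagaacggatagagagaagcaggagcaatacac
Icam1, chr9:21015690-21015989, plus strand: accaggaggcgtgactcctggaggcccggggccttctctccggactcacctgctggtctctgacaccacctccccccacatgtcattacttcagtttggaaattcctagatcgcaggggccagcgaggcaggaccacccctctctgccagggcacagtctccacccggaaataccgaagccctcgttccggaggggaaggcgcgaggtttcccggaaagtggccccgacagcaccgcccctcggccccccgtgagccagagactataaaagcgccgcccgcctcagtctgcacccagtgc
Il6, chr5:30012864-30013163, plus strand: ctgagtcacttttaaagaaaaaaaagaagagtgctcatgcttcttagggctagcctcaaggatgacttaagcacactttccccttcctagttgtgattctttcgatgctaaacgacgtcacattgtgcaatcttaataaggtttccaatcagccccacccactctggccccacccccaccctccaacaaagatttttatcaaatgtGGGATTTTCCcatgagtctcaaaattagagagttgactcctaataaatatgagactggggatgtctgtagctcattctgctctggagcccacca
RefSeq windows were at hand for 7 of the 10 members, Il33 with 2 starts, and the consensus, searched on both strands, matched 1 of these 8 windows. It was found in 8.46% of all 32851 windows of that length. The letters TATAAA lay 49 bases before the start in the Sele window and 14 bases after it in the Icam1 window, and occurred in 13.6% of all windows. A match is a description of these letters only. Other forms of the NF-kB site and sites outside these windows were not searched, so a window without a match does not show that a gene lacks such sites. Gene positions given with the members are those of the GENCODE annotation vM21 on GRCm38, whose starts can differ from RefSeq's, as for Icam1.

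Cell classes were rebuilt from expression by clustering from which the 10 members, the other gene lists and all naming markers had been withheld. No counts assigned to a member itself thus helped to form the classes. The classes used here were pericyte-like cells (70, led by Kcnj8 and Abcc9), smooth muscle-like cells (228), intermediate mural cells (104), which carried both Vtn (1980 CPM) and Acta2 (3741 CPM), valve-like (158) and interstitial (149) fibroblast-like cells, 2 unnamed fibroblast clusters, 4 (120 cells) and 12 (19), and endothelial-like, endocardial-like and lymphatic endothelial-like cells. CPM are counts per 1000000 counts of the cells of 1 mouse and class, summed. Levels of single naming markers, of the copies of Ccl19 and per kilobase instead pool all cells of a class over the mice. Classed by markers instead of clusters, the 104 intermediate cells split into 43 pericyte, 33 smooth muscle, 23 interstitial, 4 valve-like and 1 matrix fibroblast cells. The intermediate cluster also had 3 of 10 fibroblast markers raised, so it was not uniform. The smooth muscle-like class joined cluster 2 (154 cells), high in Rgs5, and cluster 7 (74), low in it. Almost all endothelial cells came from C57BL/6 mouse 1 and almost all mural cells and fibroblasts from the double reporter mice, so that endothelial levels rest on 1 mouse and carry no test against the others. Sums of at least 5 cells entered the tests, which left 2 mice for interstitial cells (12 and 135 cells of mice 2 and 3) and for intermediate cells (79 and 21 cells of mice 1 and 2), and 3 mice for smooth muscle-like (125, 77, 22), pericyte-like (47, 13, 9) and valve-like cells (69, 62, 27). All 10 members passed the filter on low counts in the fit of 19737 genes. The labels give the replicates as separate mice.

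**Figure D1:**
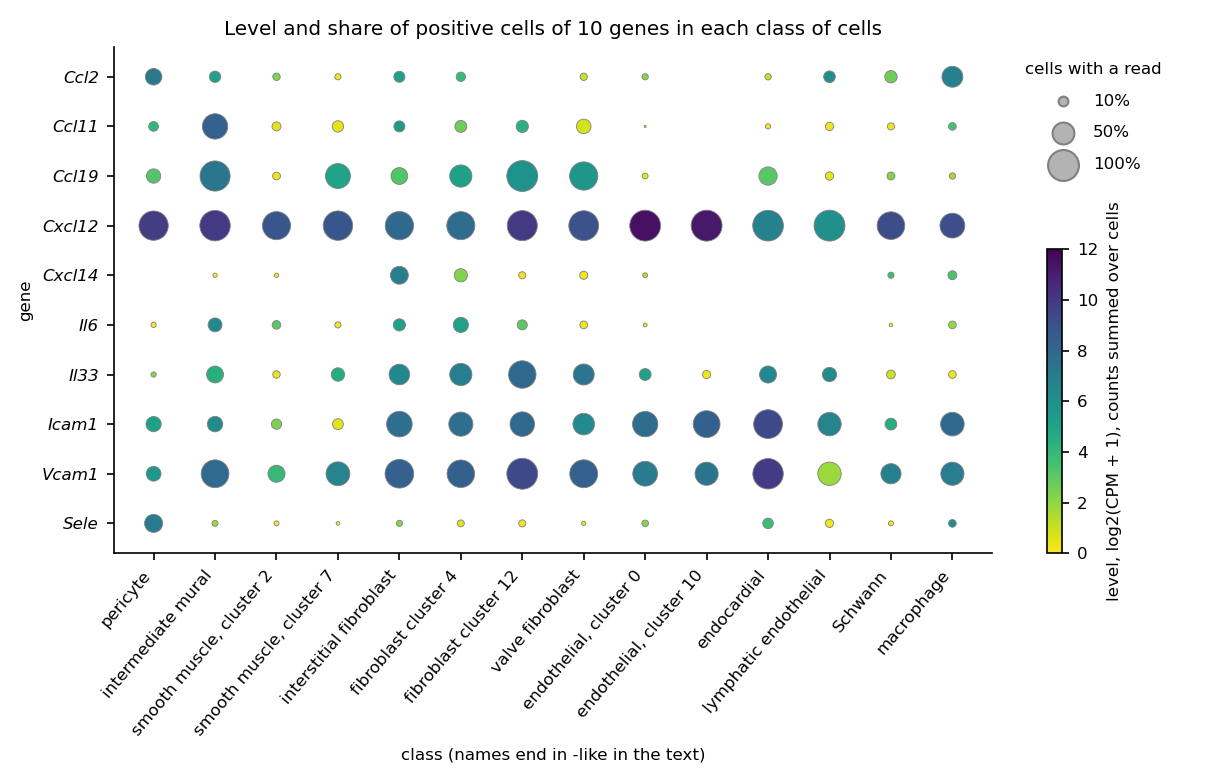
Level and detection of the 10 members by cell class. Each dot stands for 1 gene (rows) in 1 class (columns), its area for the share of cells with at least 1 read and its colour for the summed CPM of all cells of the class on a log scale. Cxcl12 was read in most cells of nearly every class, whereas Sele stood out in pericyte-like and Cxcl14 in interstitial fibroblast-like cells.

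The chemokine Cxcl12 (chr6:117168535-117181367) was the member with the widest range of cells. It was read in 1172 of 1307 cells. In the endothelial-like cells of C57BL/6 mouse 1 it reached 2944 CPM in cluster 0, led by capillary genes such as Aplnr and Car4, and 2418 CPM in cluster 10, led by the arterial genes Gja5 and Sox17. Endocardial-like and lymphatic endothelial-like cells of the same mouse held 112 and 65.0 CPM, so that the level within endothelium spanned a wide range in 1 animal. Pericyte-like cells held 814, 790 and 1481 CPM in mice 1, 2 and 3, and intermediate mural cells 972 and 1143 CPM in mice 1 and 2. Smooth muscle-like cells held 420, 413 and 462 CPM and interstitial fibroblast-like cells 203.8 and 248 CPM in mice 2 and 3. None of the pericyte sums overlapped with a smooth muscle or an interstitial sum, while the pericyte and intermediate sums overlapped. Cluster 12 of the fibroblasts, at 1103 CPM in its single sum, and the valve-like cells, at 537, 529 and 326 CPM, lay above the interstitial cells.

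Pericyte-like cells differed from interstitial fibroblast-like cells in 2 of the 10 members, against 3.07% of all genes tested. Cxcl12 was higher in pericyte-like cells (log2 fold change 2.16 ± 0.38 SE, adjusted p = 0.00759, edgeR's quasi-likelihood test with Benjamini-Hochberg adjustment), in 2 of 2 mice. The call was lost without mouse 2 (adjusted p = 0.129), and also when cells with over 500 CPM of endothelial or leukocyte markers were left out (log2 fold change 1.50, adjusted p = 0.257) or when cluster 12 was counted with the interstitial cells (1.03, adjusted p = 0.296). The filter on endothelial and leukocyte markers left out 30 of 69 pericyte-like and 22 of 148 interstitial cells. With Fabp4 not counted among these markers it left out 6 and 21, and the call was kept. Against smooth muscle-like cells the difference in Cxcl12 was 1.20 ± 0.31 (adjusted p = 0.0724) for pericyte-like and 1.44 ± 0.35 (adjusted p = 0.118) for intermediate cells. Neither passed edgeR's threshold of 0.05, while DESeq2 called both.

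Cxcl12 also differed between mice in cells that are not endothelial. Schwann-like cells held 1436 CPM in C57BL/6 mouse 1 and 386, 232 and 312 CPM in the double reporter mice, and macrophage-like cells 1798 CPM in C57BL/6 mouse 1 against 47.6 CPM in double reporter mouse 3. The 9 endothelial markers other than Fabp4 summed to 3783 CPM in those Schwann-like and 4863 CPM in those macrophage-like cells of C57BL/6 mouse 1, against 2.00 to 22.5 CPM and 45.9 CPM in the double reporter mice. All 9 were read in both C57BL/6 classes. Their part in the Cxcl12 level was not tested.

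Cxcl14 (chr13:56288643-56296551), a chemokine of epithelia and fibroblasts, had its highest sums in 1 fibroblast class of the double reporter mice. Interstitial fibroblast-like cells held 369 CPM in mouse 2 and 94.7 CPM in mouse 3, with reads in 50 of 149 cells. In mouse 2, 1 of 12 cells gave 49.2% of the counts, and without it the level was 208 CPM. The same 2 mice held 0.349 and 5.68 CPM in fibroblast cluster 4, and valve-like cells held 0, 0.363 and 0.760 CPM. No read was found in 70 pericyte-like cells, which allows a share of up to 4.29% of cells with a read. Smooth muscle-like cells held 0, 0.0672 and 0.553 CPM.

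Cxcl14 was lower in pericyte-like than in interstitial cells (log2 fold change -12.88 ± 2.64, adjusted p = 0.0419, edgeR), and since no pericyte-like cell of the sums held a read, the bound from 3 counts over the group is at least 670-fold lower. It was also lower in smooth muscle-like than in interstitial cells (-10.43 ± 2.17, adjusted p = 0.0467), each in 2 of 2 mice. Both calls were lost without any 1 of the 3 mice, with adjusted p of 0.0501, 0.482 and 0.118 for pericyte-like and 0.0626, 0.634 and 0.113 for smooth muscle-like cells without mice 1, 2 and 3. The pericyte-like call was also lost with at least 10 cells per sum (adjusted p = 0.140), and the smooth muscle-like call with cluster 7 only (adjusted p = 0.0711) and with cluster 12 counted as interstitial (adjusted p = 0.0568). In valve-like against interstitial cells Cxcl14 stood at -9.32 ± 2.05 (adjusted p = 0.142) and in cluster 4 against interstitial cells at -7.30 ± 1.95 (adjusted p = 1.0), which DESeq2 called in both.

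**Figure D2:**
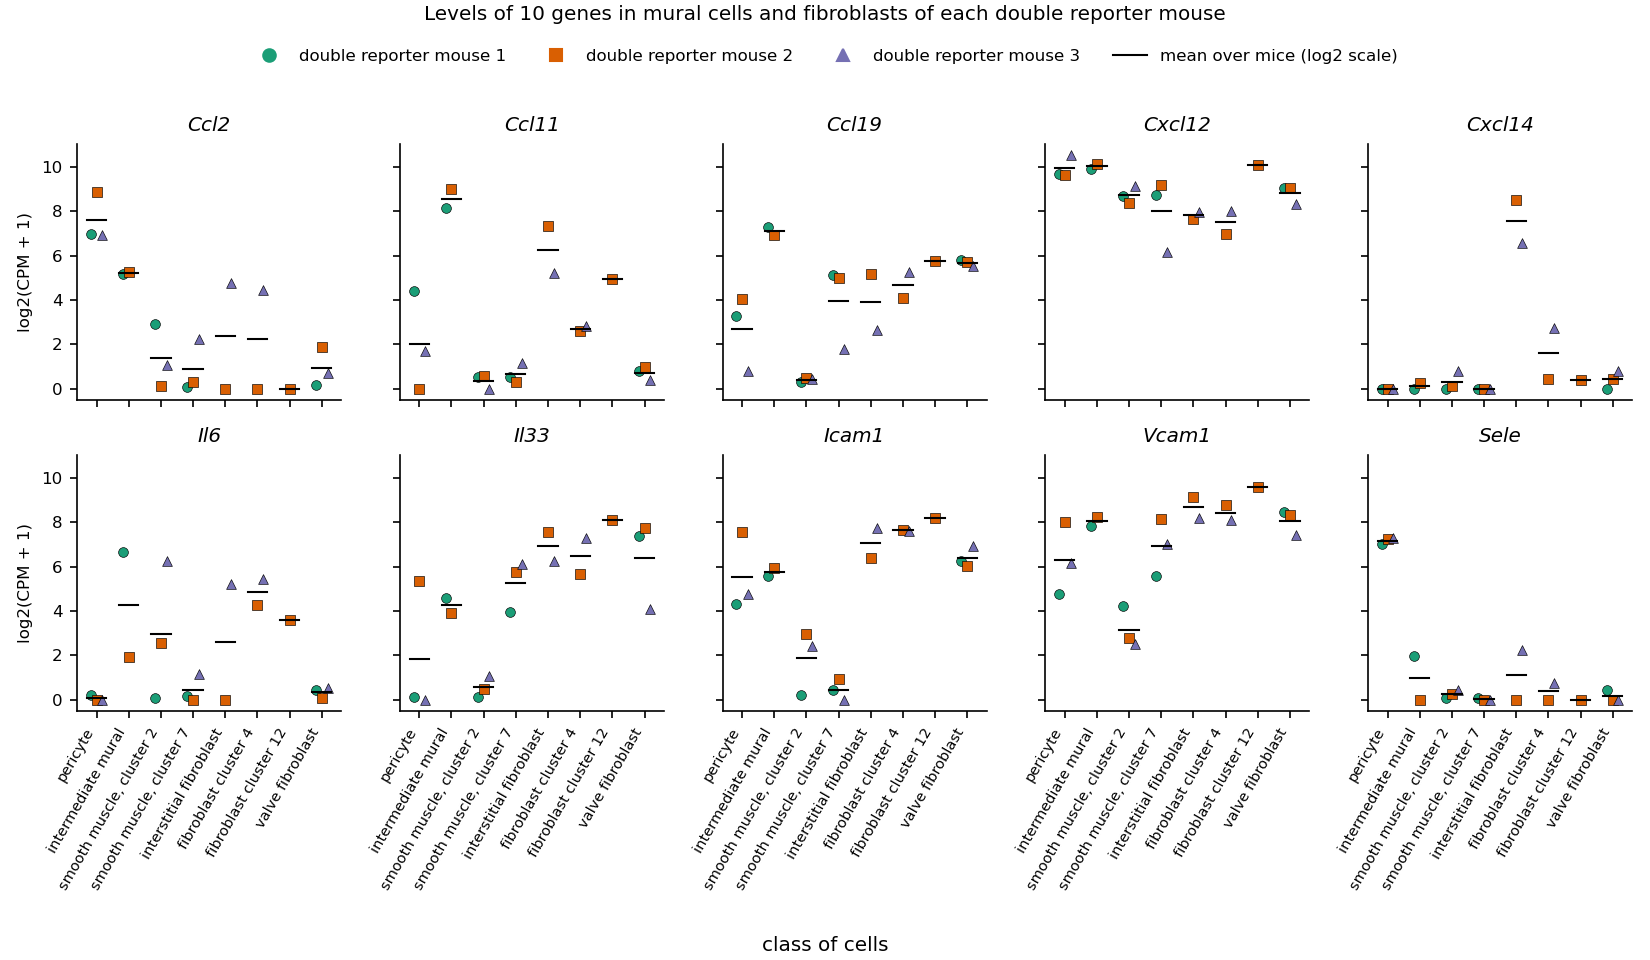
Level of each member by mouse in the mural and fibroblast classes. Points are the summed CPM of 1 double reporter mouse, plotted as log2(CPM + 1), and the line is the mean over mice on that scale. Points of Sele in pericyte-like cells sit together, at 128, 151 and 154 CPM, far above those of smooth muscle-like cells, whereas Il33 in valve-like cells spread from 15.95 to 214 CPM.

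Ccl11 (eotaxin, chr11:82057823-82062955), which attracts eosinophils, was the member that set the intermediate mural cells apart. It was read in 70 of 104 of these cells, and 48 of them held at least 100 CPM. The summed level was 281 CPM in mouse 1 and 518 CPM in mouse 2. Smooth muscle-like cells of mice 1, 2 and 3 held 0.438, 0.403 and 0.277 CPM, so that all intermediate sums lay above all smooth muscle sums. A read of Ccl11 was found in 10.1% of smooth muscle-like cells at full depth and in 1.75% once each cell was thinned to 50000 reads, against 67.3% and 53.8% of intermediate cells. None of 187 endothelial-like cells of cluster 0 in C57BL/6 mouse 1 held one.

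Of the 10 members, 1 passed the test between intermediate and smooth muscle-like cells, against 0.532% of all genes. Ccl11 was higher in the intermediate cells (log2 fold change 9.92 ± 1.46, adjusted p = 0.0119, edgeR, 2 of 2 mice). Without mice 1, 2 and 3 in turn the adjusted p was 0.135, 0.296 and 0.116. In pericyte-like cells Ccl11 held 20.0, 0 and 2.23 CPM, and 98.6% of the counts of mouse 1 came from 1 cell, which also held 326 CPM of the 9 endothelial markers.

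Between pericyte-like and intermediate cells, 1 of 10 members passed the test, against 1.36% of all genes. Ccl11 was lower in pericyte-like cells (log2 fold change -5.76 ± 1.25, adjusted p = 0.0458, edgeR, 2 of 2 mice). This call was lost without any 1 of the mice (adjusted p = 0.0858, 0.691 and 0.217 without mice 1, 2 and 3), with a minimum of 10 cells per sum (adjusted p = 0.109) and with the 2 classes alone in the fit (adjusted p = 0.295).

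Among fibroblasts, interstitial cells held 160 CPM of Ccl11 in mouse 2 and 36.3 CPM in mouse 3. In mouse 2, 93.6% of these counts came from 1 of 12 cells, and without it the level was 11.4 CPM. Valve-like cells held 0.738, 0.968 and 0.304 CPM in the 3 mice, below both interstitial sums. Ccl11 was the 1 of 10 members that passed the test between valve-like and interstitial cells, against 0.567% of all genes (log2 fold change -7.39 ± 1.29, adjusted p = 0.0254, edgeR, 2 of 2 mice). The adjusted p was 0.148, 0.317 and 0.145 without mice 1, 2 and 3, and 0.0509 with the 2 classes alone in the fit. It was 0.819, with a log2 fold change of -3.08, when cells were classed by marker sums instead of clusters.

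Ccl19 (chr4:42754525-42756577), a ligand of Ccr7 that guides dendritic cells and naive T cells, was read in 99 of 104 intermediate mural cells. Their level was 156 CPM in mouse 1 and 123 CPM in mouse 2, the highest of any class with a sum. Valve-like fibroblast-like cells were even across the mice, at 54.6, 51.9 and 45.6 CPM, with reads in 83.5% of 158 cells. Cluster 12 held 52.8 CPM in mouse 2, with a read in each of its 19 cells, cluster 4 held 15.8 and 36.9 CPM, and interstitial cells 35.1 and 5.22 CPM. Endocardial-like cells held 7.84 CPM, with reads in 22 of 64 cells, while none of 57 endothelial-like cells of cluster 10 held a read.

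Ccl19 divided the smooth muscle-like cells. Cluster 7, low in Rgs5, held 33.5, 31.0 and 2.49 CPM in mice 1, 2 and 3, the last from 4 cells, and reads in 48 of 74 cells. Cluster 2, high in Rgs5, held 0.242, 0.388 and 0.356 CPM and reads in 10 of 154 cells. The sums of the 2 clusters did not overlap, although that of mouse 3 in cluster 7 rests on 2 counts of 1 cell. In a comparison added after the clusters were seen, with 16941 genes tested, 2 of 10 members were called, against 2.12% of all genes. Ccl19 was higher in cluster 7 (log2 fold change 5.83 ± 1.29, adjusted p = 0.0249, edgeR, 3 of 3 mice), a call that was lost without mouse 1 (adjusted p = 0.546), without mouse 2 (adjusted p = 0.573) and with the 2 clusters alone in the fit (adjusted p = 0.327). For the whole classes, Ccl19 differed by 3.89 ± 1.10 between intermediate and smooth muscle-like cells (adjusted p = 0.221) and by -3.95 ± 1.12 between pericyte-like and intermediate cells (adjusted p = 0.155). The sums did not overlap in either comparison, and edgeR made no call while DESeq2 called both.

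Counts of Ccl19 are uncertain because of near-identical copies. Of the 50-base windows of the transcript of Gm2564, 475 of 658 occur in a Ccl19 transcript, as do 45.3% of the 278 windows of Ccl19-ps1 and 275 of 275 of Ccl19-ps3. Gm2564 followed Ccl19 through the classes, at 152 CPM in intermediate cells and 83.5 CPM in valve-like cells, and the 3 copies with reads, Ccl19, Gm2564 and Ccl19-ps1, summed to 330 and 137 CPM there. In smooth muscle-like clusters 7 and 2 this sum was 86.3 and 1.03 CPM. How the authors' counting treated reads that fit several places is not given in the sources used here.

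Ccl2 (MCP-1, chr11:82035571-82037453), which draws monocytes, was highest in pericyte-like and macrophage-like cells. Pericyte-like cells held 124, 473 and 120 CPM in mice 1, 2 and 3, intermediate cells 34.8 and 37.6 CPM, and smooth muscle-like cells 3.53, 0.134 and 1.66 CPM. The pericyte sums lay above all smooth muscle and intermediate sums. Reads came from few cells, 20 of 70 pericyte-like cells, and 1 cell gave 40.8%, 72.8% and 71.6% of the counts of mice 1, 2 and 3, without which the levels were 74.9, 145 and 37.0 CPM. The intermediate sum of mouse 2 came from 1 of 21 cells. Of the smooth muscle-like counts of mouse 1, 1 cell gave 95.6%, and without it the level was 0.155 CPM. The log2 fold change over smooth muscle-like cells was 7.11 ± 2.31 (adjusted p = 0.156, edgeR, 3 of 3 mice) and did not pass the threshold, while DESeq2 called it (7.29, adjusted p = 0.00100).

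Macrophage-like cells of double reporter mouse 3 held 199 CPM of Ccl2, with reads in 19 of 31 cells, and the 10 of C57BL/6 mouse 1 held none. The 20 pericyte-like cells with Ccl2 all held Vtn and Kcnj8, none held Ptprc (CD45) and 1 held Cd68. The 50 without Ccl2 all held Vtn and Kcnj8 too, 1 held Ptprc and 2 held Cd68. Endothelial-like cells of cluster 0 held 3.51 CPM and those of cluster 10 none.

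**Figure D3:**
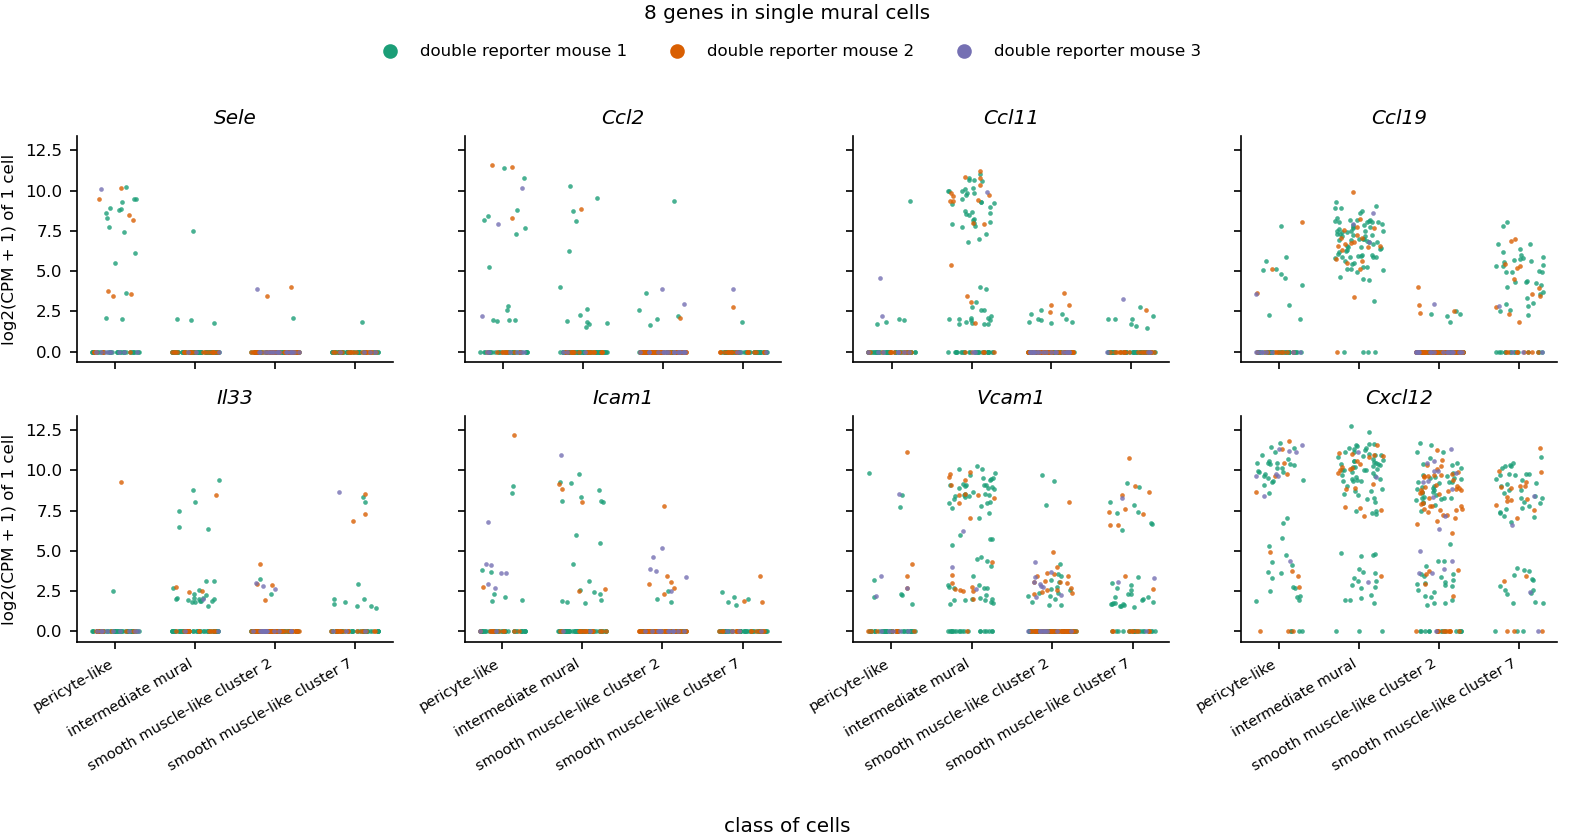
Members in single mural cells. Each point is 1 cell, at log2(CPM + 1), in the pericyte-like class, the intermediate mural class and smooth muscle-like clusters 2 and 7. Colours mark the 3 double reporter mice and points at 0 are cells without a read. In the intermediate class, 48 of 104 cells held at least 100 CPM of Ccl11, and most of the others lie at or near 0. Both counts include 1 cell of the ACTA2GFP mouse.

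Among the cytokines, Il6 (chr5:30013114-30019981) was read in 109 cells in all. Intermediate cells of mouse 1 held 101 CPM, with reads in 19 of 79 cells, and those of mouse 2 held 2.73 CPM from 1 of 21 cells. Fibroblast cluster 4 held 18.1 and 42.5 CPM in mice 2 and 3, and interstitial cells 0 and 36.3 CPM. Smooth muscle-like cells held 0.0772, 3.36 and 59.2 CPM, of which 1 cell gave 95.8% in mouse 3, and pericyte-like cells 0.140, 0 and 0 CPM. The mice of 1 class were thus far apart, and no comparison of Il6 passed the test. Its largest differences were -9.15 ± 2.66 between pericyte-like and intermediate cells (adjusted p = 0.167) and -7.28 ± 2.60 between pericyte-like and smooth muscle-like cells (adjusted p = 0.199), both called by DESeq2.

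Il33 (chr19:29925114-29960718) had its highest sum in fibroblast cluster 12, at 274 CPM. Valve-like cells held 165, 214 and 15.95 CPM in mice 1, 2 and 3, interstitial cells 189 and 76.4 CPM in mice 2 and 3, and cluster 4 held 49.7 and 158 CPM. The ranges of these 3 classes overlapped, and the single sum of cluster 12 lay above them. Reads were found in 2 of 70 pericyte-like cells, and smooth muscle-like cells held 6.85, 16.6 and 16.05 CPM. Pericyte-like cells were lower than interstitial cells by 3.97 ± 1.67 on the log2 scale and smooth muscle-like cells by 3.02 ± 1.58, with no overlap and no call (adjusted p = 0.291 and 0.495).

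Within the smooth muscle-like cells, the Il33 sums were higher in cluster 7, but only 14 of its 74 cells held a read. Cluster 7 held 14.5, 53.1 and 68.5 CPM and cluster 2 held 0.0968, 0.388 and 1.07 CPM, without overlap. In cluster 7 the top cell gave 53.0%, 57.2% and 100% of the counts of mice 1, 2 and 3, and without it the levels were 6.98, 24.8 and 0 CPM, so that the sums then overlapped. The log2 fold change of 6.63 ± 1.84 was not called (adjusted p = 0.0843, edgeR, 3 of 3 mice), while DESeq2 called it. Within endothelium, endocardial-like cells held 93.0 CPM, lymphatic endothelial-like cells 98.2 CPM and cluster 0 held 36.4 CPM, against 0.210 CPM in the arterial-led cluster 10.

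Among the adhesion receptors, Sele (chr1:164048234-164057677) was found in pericyte-like cells. They held 128, 151 and 154 CPM in mice 1, 2 and 3, and smooth muscle-like cells 0.0515, 0.134 and 0.277 CPM. Reads came from 16 of 47, 7 of 13 and 1 of 9 pericyte-like cells, so that in mouse 3 a single cell gave all counts. After thinning to 50000 reads per cell, Sele was read in 28.6% of the pericyte-like class and in 0.439% of the smooth muscle-like class. Intermediate cells held 2.92 and 0 CPM, interstitial cells 0 and 3.69 CPM, and valve-like cells 0.351, 0 and 0 CPM.

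Of the 10 members, 2 were higher in pericyte-like than in smooth muscle-like cells and none was lower, against 0.765% of all genes higher and 2.42% called either way. Sele was higher by 10.22 ± 2.06 on the log2 scale (adjusted p = 0.0216, edgeR, 3 of 3 mice). Without mice 1, 2 and 3 in turn the adjusted p was 0.119, 0.0859 and 0.114, with log2 fold changes of 9.67 to 10.54. Against intermediate and interstitial cells Sele stood at 7.53 ± 2.25 (adjusted p = 0.184) and 7.01 ± 2.19 (adjusted p = 0.129), without overlap and without a call by edgeR, and DESeq2 called both.

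In textbooks Sele is an endothelial gene, and its level in the endothelial classes was low. Endothelial-like cells of cluster 0 held 3.82 CPM (reads in 9 of 187 cells), those of cluster 10 none in 57 cells, and endocardial-like cells 12 CPM (7 of 64). The 24 pericyte-like cells with Sele and the 46 without it held medians of 8.99 and 7.90 CPM of the 9 endothelial markers. Of the 24, 1 held Cdh5, 16 held Pecam1 and 4 exceeded 500 CPM of these markers, against 1, 28 and 3 of the 46. The top Sele cells of mice 1, 2 and 3 gave 22.7%, 31.8% and 100% of the counts. They held 2.86, 980 and 21.4 CPM of these markers and 452, 0 and 42.9 CPM of the 9 macrophage markers. All 24 held Vtn and Kcnj8, as did all 46 without Sele. Of the 28 cells with at least 100 CPM of Sele in the whole table, 16 were pericyte-like, 4 endocardial-like, 3 macrophage-like, 2 interstitial, 2 of endothelial-like cluster 0 and 1 intermediate. The 3 macrophage-like cells, of 4 such cells in mouse 1, also held Vtn and Kcnj8 and neither Ptprc nor Cd68. Sele and Ccl2 were read together in 12 pericyte-like cells, that is 12 of the 24 with Sele and 12 of the 20 with Ccl2.

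Icam1 (chr9:21015985-21028817), the ligand of leukocyte integrins such as LFA-1, was highest in endocardial-like cells, at 663 CPM with reads in 56 of 64 cells. Endothelial-like clusters 10 and 0 held 334 and 225 CPM. Interstitial cells held 82.7 and 210 CPM, cluster 4 held 199 and 197 CPM, and valve-like cells 75.0, 64.3 and 122 CPM. Smooth muscle-like cells were the lowest of these classes, at 0.232, 5.04 and 3.32 CPM, and did not overlap with any of these. Intermediate cells, at 47.5 and 59.6 CPM, lay between the smooth muscle and the fibroblast sums. Pericyte-like cells held 19.0, 186 and 26.0 CPM, and their sum of mouse 2 lay above all valve-like sums.

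Icam1 was higher in pericyte-like than in smooth muscle-like cells (log2 fold change 4.78 ± 0.98, adjusted p = 0.0235, edgeR, 3 of 3 mice). This rests on few cells: 17 of 70 held a read, and in mouse 2 a single cell of 13 gave 99.7% of the counts, without which the level was 0.673 CPM. The adjusted p was 0.0943, 0.194 and 0.129 without mice 1, 2 and 3. It was 0.0572 against smooth muscle-like cluster 2 alone and 0.208 when only the 2 classes entered the fit. Intermediate cells exceeded smooth muscle-like cells by 5.05 ± 1.07 (adjusted p = 0.0714), a difference that DESeq2 called and edgeR did not.

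Smooth muscle-like cells were lower than interstitial fibroblast-like cells in 4 of 10 members and higher in none, against 1.68% of all genes lower and 2.94% called either way. The 4 were Cxcl14, given above, Ccl11 (log2 fold change -8.34 ± 1.39, adjusted p = 0.00553), Icam1 (-5.70 ± 1.05, adjusted p = 0.0108) and Vcam1 (-3.03 ± 0.55, adjusted p = 0.0105), by edgeR and each in 2 of 2 mice. Without mice 1, 2 and 3 the adjusted p was 0.0405, 0.115 and 0.0700 for Ccl11, 0.0502, 0.0504 and 0.143 for Icam1, and 0.0115, 0.203 and 0.178 for Vcam1. With cells classed by marker sums the Ccl11 difference shrank to -0.70 (adjusted p = 0.933).

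Vcam1 (chr3:116109949-116129688), which binds the integrin VLA-4 of monocytes and lymphocytes, was highest in endocardial-like cells too, at 925 CPM with reads in 63 of 64 cells. Endothelial-like clusters 0 and 10 held 128 and 167 CPM and lymphatic endothelial-like cells 3.12 CPM. Interstitial cells held 567 and 296 CPM, cluster 4 held 434 and 274 CPM, valve-like cells 353, 320 and 172 CPM and the single sum of cluster 12 held 777 CPM. Intermediate cells held 228 and 301 CPM, with reads in 84 of 104 cells. The intermediate cells overlapped with the interstitial, valve-like and cluster 4 sums, and cluster 12 lay above all of them.

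In pericyte-like cells Vcam1 held 26.4, 255 and 70.6 CPM, of which 1 cell gave 99.2% in mouse 2 and 96.8% in mouse 3. Their difference from interstitial cells was -2.06 ± 0.54 (adjusted p = 0.0632, edgeR), which DESeq2 called. In smooth muscle-like cluster 7 Vcam1 held 47.2, 283 and 131 CPM, and in cluster 2 it held 17.4, 5.91 and 4.62 CPM. In cluster 7, 1 cell gave 63.0% of the counts in mouse 2 and 97.1% in mouse 3, and without it the levels were 117 and 6.38 CPM, the latter within the range of cluster 2. It was higher in cluster 7 (log2 fold change 3.67 ± 0.76, adjusted p = 0.0152, edgeR, 3 of 3 mice), and the call was lost without mouse 2 (adjusted p = 0.508) and without mouse 3 (adjusted p = 0.332), with at least 10 cells per sum (adjusted p = 0.0663) and with the 2 clusters alone in the fit (adjusted p = 0.258). Against interstitial cells, cluster 7 alone stood at -1.51 (adjusted p = 0.325). Vcam1 overlaps the antisense gene Gm43109, whose level followed it (r = 0.95 over 25 sums), and Ccl2 and Ccl19 also share bases with antisense genes. The strand setting of the counting is not given in the sources used here, so reads of such pairs cannot be told apart.

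**Figure D4:**
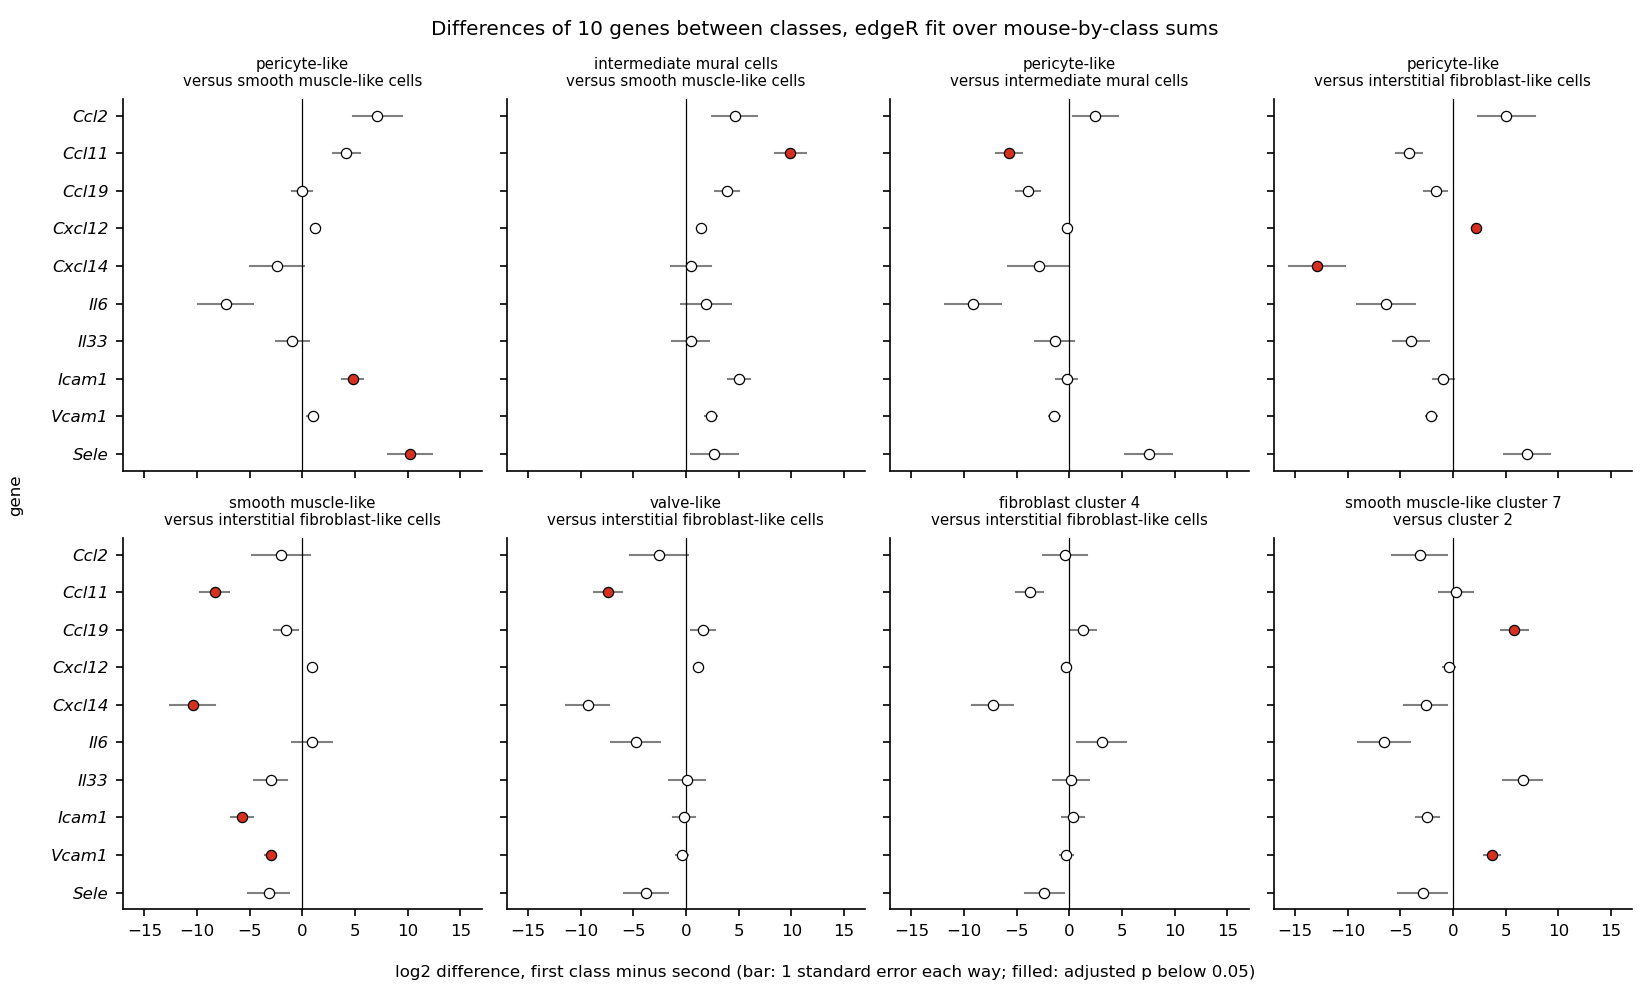
Differences of the members between classes. Points are edgeR log2 fold changes, the first class named minus the second, bars reach 1 standard error each way and filled points passed an adjusted p of 0.05. Of the 8 comparisons, that of smooth muscle-like with interstitial fibroblast-like cells had the most filled points, 4, all on the negative side.

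Between fibroblast cluster 4 and the interstitial cells no member passed edgeR's test, against 0.00507% of all genes, that is 1 gene, Lmcd1, which lies outside the lists and is named after its value was seen. At an unadjusted p under 0.05 there were 2 members, and DESeq2 called 1, Cxcl14. Cluster 4 was led by Cilp and Thbs4, markers of matrix fibroblasts, and by Upk3b and Msln, markers of mesothelium, and stayed unnamed. Its 6 mesothelial markers summed to 1495 CPM in mouse 2, in which 3 of 29 cells exceeded 500 CPM, and to 0.0979 CPM in mouse 3. Valve-like cells held Cilp and Thbs4 too, at 1058 and 392 CPM against 1498 and 641 CPM in cluster 4. Classed by markers, 56 of 158 valve-like cells counted as matrix fibroblasts and 89 as valve-like.

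DESeq2, run as an alternative to edgeR, called more members and also more genes. It called 6 of the 10 members between pericyte-like and smooth muscle-like cells, against 15.3% of all genes with an adjusted p, 5 between intermediate and smooth muscle-like cells (4.59%) and 4 between pericyte-like and intermediate cells (8.83%). Against interstitial cells it called 5 members in pericyte-like cells (16.2%), 4 in smooth muscle-like cells (11.6%), 2 in valve-like cells (4.06%) and Cxcl14 in cluster 4 (0.775%). Between smooth muscle-like clusters 7 and 2 it called 4 (8.31%).

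Levels of a class, pooled over all mice, were also divided by the kilobases of all annotated exons of a gene, joined over its transcripts. This length was 1082 bases for Ccl11 and 8176 bases for Cxcl12. Which transcripts were expressed was not used, so the order of genes on this scale can depend on the annotation. Per kilobase, intermediate cells held 297 CPM of Ccl11, 177 CPM of Ccl19 and 124 CPM of Cxcl12. Pericyte-like cells held 133 CPM per kilobase of Ccl2, 113 of Cxcl12 and 44.2 of Sele. In endothelial-like cluster 0, Cxcl12 at 357 CPM per kilobase exceeded Icam1, at 50.8, and in endocardial-like cells Icam1 and Vcam1, at 148 and 108, exceeded Cxcl12, at 13.1. The median cell held reads of 4 members among intermediate, interstitial, valve-like and endocardial-like cells and of 2 among pericyte-like and smooth muscle-like cells.

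The other genes of these pathways were counted in the same fits. Over all genes, the shares called either way were 2.42% between pericyte-like and smooth muscle-like cells, 0.532% between intermediate and smooth muscle-like cells, 3.07% and 2.94% between pericyte-like and smooth muscle-like cells and interstitial cells, and 2.12% between smooth muscle-like clusters 7 and 2. Of 33 other chemokine ligands 19 were tested. Cxcl1, which attracts neutrophils, was the 1 called between intermediate and smooth muscle-like cells and was higher in the former, at 563 and 640 CPM in mice 1 and 2 against 18.6, 10.9 and 7.47 CPM (log2 fold change 5.77 ± 0.98, adjusted p = 0.0216, edgeR). Smooth muscle-like cells were lower than interstitial cells in 3 of the 19, Ccl7 (-7.57 ± 1.79), Cxcl16 (-4.90 ± 0.77) and Cxcl1 (-4.32 ± 0.97), with a list median of -3.11 beside -0.02 over all genes. Cxcl16 was also lower in pericyte-like than in interstitial cells (-4.15 ± 0.80), the 1 call of 19 there, with a list median of -2.27 beside -0.50. Cx3cl1, a membrane-bound chemokine, was the 1 of 13 called between smooth muscle-like clusters 7 and 2, at 139, 348 and 211 CPM against 8.71, 5.72 and 2.13 CPM.

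Of 34 other cytokines 22 were tested. Il34, a ligand of the receptor Csf1r, was higher in pericyte-like than in interstitial cells, at 503, 349 and 265 CPM against 21.2 and 10.8 CPM (log2 fold change 4.64 ± 0.95, adjusted p = 0.0192, edgeR), and lower in smooth muscle-like cluster 7 than in cluster 2 (-8.55 ± 1.22). Kitl, the ligand of Kit, was higher in smooth muscle-like than in interstitial cells (6.27 ± 1.39). No other cytokine of the list was called in the 8 comparisons.

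Of 41 receptors 32 were tested, and pericyte-like cells differed from smooth muscle-like cells in 3. Tnfrsf1a, the main receptor of tumour necrosis factor, was higher, at 736, 526 and 415 CPM against 190, 187 and 69.5 CPM (1.97 ± 0.32). Ackr3, which binds and takes up Cxcl12, was lower, at 1.19, 43.3 and 18.6 CPM against 155, 244 and 514 CPM (-4.23 ± 0.89), as was Il11ra1 (-4.37 ± 0.84). Interstitial cells held 559 and 668 CPM of Ackr3, and pericyte-like cells were lower than these too (-4.99 ± 0.94), along with Il11ra1 and Ifngr1, 3 of 32. The list medians were 0.03 and -0.72, beside -0.41 and -0.50 over all genes.

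Of 26 other adhesion genes 22 were tested. Esam and Mcam, adhesion molecules of vessel wall cells, were higher in pericyte-like than in interstitial cells (8.40 ± 1.45 and 7.84 ± 1.14) and Cd34 was lower (-5.70 ± 0.49), and smooth muscle-like cells differed from interstitial cells in these 3 and in Cd47, which was lower (-2.03 ± 0.32). Within the smooth muscle-like cells, Alcam was higher in cluster 7 (9.20 ± 1.73) and Esam lower (-5.16 ± 1.05), 2 of 16 tested.

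Of the 25 NF-kB pathway and target genes, 1 was called between pericyte-like and smooth muscle-like cells. Rela, a subunit of NF-kB, was higher in pericyte-like cells, at 507, 582 and 621 CPM against 150, 183 and 161 CPM (1.76 ± 0.29, adjusted p = 0.00624, edgeR). The list median was -0.13 beside -0.41 over all genes. Against interstitial cells Rela was higher (1.62 ± 0.34) and Socs3 lower (-5.56 ± 1.10) in pericyte-like cells, and Tnfaip2 was lower in smooth muscle-like cells (-7.63 ± 1.77).

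Immediate early and heat shock genes, which dissociation of tissue is known to induce, were called in several of these comparisons. In pericyte-like against smooth muscle-like cells 6 of 22 were lower and none higher, against 2.42% of all genes called either way, among them Fosb (-4.05 ± 0.86), Nr4a1 (-3.18 ± 0.65) and Zfp36 (-2.25 ± 0.25). Against intermediate cells 3 of 22 were lower, beside 1.36% of all genes, and against interstitial cells 9 of 22, beside 3.07%. The list summed to 4219, 6501 and 3999 CPM in pericyte-like cells, to 9095, 10804 and 17022 CPM in smooth muscle-like cells, to 11576 and 7494 CPM in intermediate cells and to 12508 and 14171 CPM in interstitial cells. Cluster 7 was lower than cluster 2 in 3 of 22, Junb, Zfp36 and Fos, beside 2.12% of all genes. The part of these genes in the member levels was not tested.

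Markers of other cell types differed as well between the classes compared. The 9 endothelial markers other than Fabp4 summed to 173, 592 and 18.6 CPM in pericyte-like, 87.4, 28.9 and 16.9 CPM in smooth muscle-like, 196 and 165 CPM in intermediate and 390 and 213 CPM in interstitial cells. The 9 macrophage markers summed to 0 to 55.0 CPM in these classes. With the cells over 500 CPM of endothelial or leukocyte markers left out, 7 of the 11 called differences fitted were still called, among them Sele in pericyte-like cells (log2 fold change 10.73, adjusted p = 0.0188) and Ccl11 in intermediate cells (9.07, adjusted p = 0.0231). Beside Cxcl12, given above, the calls of Cxcl14 in pericyte-like and smooth muscle-like against interstitial cells (adjusted p = 0.0562 and 0.0684) and of Icam1 in smooth muscle-like against interstitial cells (adjusted p = 0.0624) were lost. With Fabp4 not counted among these markers, that of Ccl11 in pericyte-like against intermediate cells was lost (adjusted p = 0.0659).

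As a description over 25 sums of at least 10 cells, which share mice and plates, the genes whose log2 levels were most like a member's were Podn for Ccl11 (r = 0.86), Gm2564, its near copy, for Ccl19 (r = 0.99), Ifi205 for Cxcl14 (r = 0.80), Fbxo17 for Il33 (r = 0.82) and Shisa5 for Icam1 (r = 0.82). For Ccl2 it was Birc6 (r = 0.75), for Cxcl12 Pakap (r = 0.69), for Il6 the immediate early gene Junb (r = 0.73) and for Sele Irf3 (r = 0.80). Icam1 was the second most similar gene to Vcam1 (r = 0.73), the 1 case of a member among the 3 genes most like another member.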

How the data were processed

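The values deposited by the authors are read counts for each gene in each cell, whole and not normalised. The tools that the submitters' processing notes name are featureCounts of Subread, Bowtie2, Bowtie and bcl2fastq, with the build GRCm38 (mm10). Their versions, the strand setting and the treatment of reads with several matches are not given in the sources used here. Counts were deposited for 1307 cells with 50476 to 811982 counts each (median 274702), and no pair of cells was identical. Intervals (95%) and limits (3 counts) cover counting error only, since PCR copies of 1 molecule are counted separately.

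The members and gene lists were chosen with earlier results of these data known. All cells were kept. They were scaled to 100000 counts, and clustered by the Leiden method at resolution 1, on 15 neighbours in 30 principal components of 2000 variable genes (scanpy 1.11.5, leidenalg 0.10.2, Python 3.11.15). Withheld were 1924 genes: those of the Y chromosome, mitochondria and rRNA, Xist and Tsix, the members, the lists and all markers. Other genes of the X chromosome were not withheld as such. A name required 3 or more of a class's markers at 100 CPM or above and at 2 times their mean over clusters. This rule alone did not decide the names. Clusters 4, 5 and 12 met it too and were still left unnamed, and cluster 5 is called intermediate by its Vtn and Acta2. Several named clusters also met it for another type. Smooth muscle-like cluster 2 had 5 of 10 pericyte markers raised and valve-like cluster 1 had 6 of 7 matrix markers. Interstitial cluster 3 had 3 of 6 adventitial fibroblast markers raised and endothelial-like cluster 0 had 5 of 8 cardiomyocyte markers. Cluster 12 had 6 of 8 interstitial markers raised, against 7 of 8 in cluster 3, the interstitial one. Classed by markers, 18 of the 19 cells of cluster 12 were interstitial. Cluster 4 had 6 of 8 interstitial and 5 of 7 matrix markers raised. Cluster 5 had 7 of 10 pericyte and 4 of 10 smooth muscle markers raised. Doublets were called with Scrublet, which marked 7 of 1307 cells, and were left in.

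Raw counts were summed per double reporter mouse and class over at least 5 cells and fitted together with edgeR 4.0.16 (R 4.3.3; TMM, filterByExpr, quasi-likelihood F test, Benjamini-Hochberg over all genes, threshold 0.05), with the mouse as a block because the classes came from the same animals. Deviations of same-mouse sums from their class means correlated at r = 0.0344 to 0.112 over 19737 genes. The comparison of smooth muscle-like clusters was added after seeing the data, at 4 or more cells per sum. The "matrix" fibroblast comparison planned was made with cluster 4. The script was tested on simulated data, with 50 genes of at least 16 CPM changed per fold size. Between pericyte-like and smooth muscle-like cells edgeR called 0, 1, 14 and 11 of 50 changes of 2-, 4-, 8- and 16-fold. Between valve-like and interstitial cells it called 0, 2, 11 and 9 of 50. In both, all 2- and 8-fold changes were increases in the first class and all 4- and 16-fold changes decreases. Effects of fold size and of direction on these counts thus cannot be told apart. No unchanged gene was called, and most changed genes were not called. Alternatives were DESeq2 1.42.0, no filter, other cell minimums, no block, the 2 classes alone, each mouse left out, doublets removed, classes by markers and cells with other markers removed. The text names all 10 members, per list and comparison up to 3 called genes each way with 1 direction in every mouse, and the genes most correlated with each member in log2(CPM + 1), of at least 10 CPM on average. Not every gene that this rule names is given with its value.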

Additional observations from a re-analysis of the deposited data

Results flagged for a closer look

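The 11 cells of the 4 mice with few cells entered no comparison, and 9 of the 10 members lay above the limit that a count of 0 allows in them, with no control to set beside them. Their summed levels were 1731 CPM for Cxcl12, 122 CPM for Icam1, 73.3 CPM for Vcam1, 60.9 CPM for Ccl11, 22.5 CPM for Il6, 19.2 CPM for Ccl19, 14.7 CPM for Cxcl14, 9.02 CPM for Il33 and 4.51 CPM for Ccl2. Of the 54 counts of Ccl11, 88.9% came from 1 cell.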

How the results depend on the processing

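Of 988 values of members under alternatives, 67 changed sign, none of them called, and 0 called values reversed. All 13 called differences, which cover 7 members, were still called with DESeq2, with no filter on low counts and without the replicate block, and 11 of 11 without doublets. With 1 mouse left out, 6 of 39 fits kept the call. Such fits leave some classes with 1 sum, which is assumed to vary like the others. In all, 53 calls were lost and 32 gained, 18 of them with DESeq2. The cause was not tested.

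The number of genes called by edgeR depended on the choices. In the order of pericyte-like against smooth muscle-like cells, intermediate against smooth muscle-like, pericyte-like against intermediate, pericyte-like against interstitial, smooth muscle-like against interstitial, valve-like against interstitial, cluster 4 against interstitial and smooth muscle-like cluster 7 against 2, it was 477, 105, 269, 605, 580, 112, 1 and 359. DESeq2 called 2317, 905, 1507, 2396, 1800, 785, 150 and 1272. With 1 mouse left out the ranges were 149 to 258, 1 to 34, 58 to 186, 164 to 397, 151 to 298, 33 to 52, 0 to 0 and 91 to 270. With the 2 classes alone, 198, 42, 69, 288 and 87 genes were called in the first 4 comparisons and the last, and 0 for cluster 4. Classes by markers gave 277, 46 and 41 in the first, the sixth and the seventh. There was no intermediate class by markers. Without cells with other markers there were 37, 293 and 61 in the second, the fifth and the sixth, and 0 in the seventh. With Fabp4 not counted, there were 65 in the second and 0 in the seventh. Smooth muscle-like cluster 2 alone gave 273 in the second and cluster 7 alone 271 in the fifth. Clusters 3 and 12 together gave 62 in the sixth and 0 in the seventh. For cluster 4, no filter, at least 10 cells per sum, no replicate block and no doublets gave 3, 4, 5 and 2. No replicate block ended none of the 13 calls.

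Of 130 shares of cells with a read, 70 left their 95% interval when cells were thinned to 50000 reads and 81 at a minimum of 10 CPM, and 14 of 40 endothelial levels did so as a mean of cells.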
